A study of Homo sapiens with 6 samples.

Results

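The 7 genes described here encode the enzymes that write and oxidise 5-methylcytosine in human DNA, with the cofactor that guides the copying of the mark. They are TET1, TET2, TET3, DNMT1, DNMT3A, DNMT3B and UHRF1, taken as the rows whose Ensembl identifier belongs to a listed symbol. All 7 were found among the 58288 genes of the expression table, and all 7 passed the filter on low values. The cells were K562, a human erythroleukemic line. Single cell clones stably expressed 3xFLAG-2KR-Myb-HA or 3xFLAG-ANAA-Myb-HA and were kept in 200 µg/ml G418. 2KR-MYB has its SUMO-acceptor lysines changed to arginine, and ANAA-MYB carries a mutated SUMO-interaction motif. Both groups received the siRNA si2992 (siU2992) against endogenous MYB, which targets the 3′-UTR of the endogenous transcript, and RNA was taken 24 h after transfection. Each rescue had 3 libraries, all 3 from clone 18 for 2KR-MYB and all 3 from clone 5 for ANAA-MYB. Mutant and clone therefore cannot be told apart, and p-values measure only the spread between libraries of 1 clone each. Libraries of the control, the knockdown and WT-MYB were not analysed here.

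DNA methylation in mammals is copied after each round of replication by DNMT1, which UHRF1 brings to hemimethylated CpG sites by reading the old strand. DNMT3A and DNMT3B place new methyl groups on unmethylated DNA. The TET enzymes use iron and 2-oxoglutarate to oxidise 5-methylcytosine to 5-hydroxymethylcytosine and beyond, after which base excision repair can restore cytosine. TET2 and DNMT3A are among the genes most often mutated in blood cancers. All values below are RNA levels, and neither DNA methylation nor protein was measured in these libraries.

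UHRF1 was the 1 gene of the 7 past the threshold, and it was lower in the 2KR-MYB rescue, at 28.0 ± 1.23 FPKM against 40.1 ± 1.59 FPKM (mean ± SD, n = 3 each). FPKM is the number of fragments scaled to transcript length and to the size of the library. TET2 was 22.9% higher in the 2KR-MYB rescue in mean FPKM, with all 3 libraries above all 3 of the ANAA-MYB rescue, but it missed the threshold of 0.01 on the adjusted p. DNMT1 was also apart in the libraries, by a smaller margin and in the direction of UHRF1. TET1, TET3, DNMT3A and DNMT3B overlapped between the rescues. Tests were made by limma on log2(FPKM + 1) over the 12634 genes averaging 1 FPKM or more, with Benjamini-Hochberg adjustment, and every difference is 2KR-MYB minus ANAA-MYB on that scale. Changes of weakly expressed genes are understated on it. Over all tested genes 13.0% passed the threshold, 7.42% with a lower and 5.57% with a higher level in the 2KR-MYB rescue. The libraries of the rescues did not overlap for 44.9% of the tested genes, against 3 of the 7 genes here.

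MYB binds DNA through its N-terminal repeats, which recognise a short core, and the promoters of the 3 genes whose libraries did not overlap are shown for where that core does and does not occur. RefSeq windows (GRCh38.p14) from 250 bases before to 50 bases after each annotated start were searched on both strands for the MYB core, AACTG or AACGG, and for E2F-type sites, TTTCCCGC or TTTGGCGC, letters picked after the expression values had been seen. Matches are in capitals in the sequences, printed 5′ to 3′ on the strand of the gene:
UHRF1, chr19:4909476-4909502, plus strand: gccgagttttcGCGGGAAAaaaatcag
TET2, chr4:105146824-105146850, plus strand: aacagacgtcaAACTGccttatgaata
DNMT1, chr19:10195060-10195086, minus strand: catggccggctCCGTTccatccttctg
DNMT1, chr19:10195025-10195051, minus strand: atcgcctctctCCGTTtggtacatccc

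The capitals in the UHRF1 sequence are the reverse complement of TTTCCCGC and begin at position −14 from a start site that lies inside the annotated span of the gene. TTTCCCGC was found in 1.63% of 35116 promoter windows of the same length, and neither MYB core was found in any of the 3 windows of UHRF1. All 3 belong to starts inside the span of UHRF1, which begins at 4903080. The 5′ end of UHRF1 was therefore not searched, and the absence of a core does not describe that end. In TET2 the core AACTG begins at −41 from a start that also lies inside the span of the gene. In DNMT1 the reverse complement of AACGG begins at −122 and −87. AACTG was found in 39.7% and AACGG in 19.7% of all windows, and 52.4% held at least 1 of them, so these cores are common letters. A match of either core was also present in windows of TET1, DNMT3A and DNMT3B and absent from both windows of TET3. Both windows of TET3 belong to starts inside its span, which begins at 73983631, so its 5′ end was not searched either. No match of a motif overlapped a match of another in the sequences printed. TTTGGCGC, found in 0.652% of all windows, matched no window of the 7 genes. CpG sites numbered from 3 in the window of DNMT3B, the 24.5th percentile of all windows, to 46 in a window each of DNMT3A and UHRF1, the 97.6th percentile. The window of DNMT3B (chromosome 20, 32779602 to 32779901) also belongs to a start inside the span of the gene, which begins at 32762385. The 5′ end of DNMT3B was therefore not searched, and its count and match do not describe that end.

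Levels differed widely among the 7 genes, and FPKM values, which are per transcript length, allow them to be set side by side. DNMT1 was the highest, at the 84.6th percentile of the tested genes in mean level over the 6 libraries. UHRF1 followed at the 75.2nd percentile and DNMT3B at the 69.7th. The TET genes were lower, with TET3 at the 34.5th, TET1 at the 26.5th and TET2 at the 25.5th percentile. DNMT3A was the lowest, at the 15.6th. DNMT1 exceeded UHRF1 by 1.37 to 1.87 times within a library, and their ranges over the 6 libraries did not overlap. UHRF1 exceeded DNMT3B by 1.03 to 1.45 times in 6 of 6 libraries, although their ranges overlapped. DNMT3B stood 3.52 to 3.91 times above TET3, and TET3 stood 1.34 to 1.61 times above TET1. TET1 and TET2 had no fixed order, since TET2 was above TET1 in the 3 libraries of the 2KR-MYB rescue and below it in the 3 of the ANAA-MYB rescue. TET2 exceeded DNMT3A by 1.59 to 2.00 times.

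**Figure D1:**
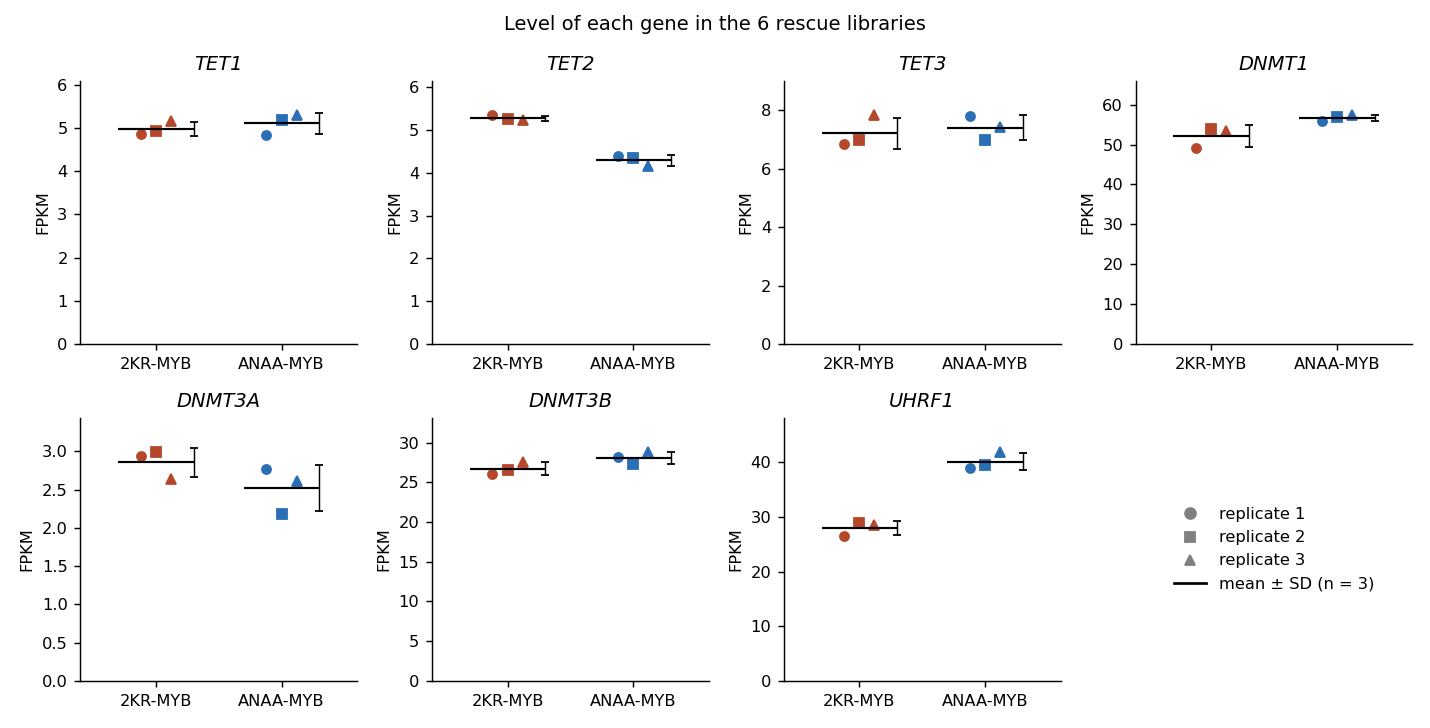
FPKM of each of the 7 genes (y axis, from 0) in the 3 libraries of the 2KR-MYB and the 3 of the ANAA-MYB rescue, with a symbol for each replicate and lines for mean ± SD (n = 3). UHRF1 runs from 26.6 to 28.9 FPKM with 2KR-MYB and from 38.9 to 41.9 FPKM with ANAA-MYB, TET2 and DNMT1 are also apart, and the other 4 genes overlap.

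The maintenance pair came first in level. UHRF1 (ENSG00000276043, chromosome 19, 4903080 to 4962154), whose protein reads hemimethylated CpG sites, measured 26.6, 28.9 and 28.6 FPKM in the 2KR-MYB libraries, against 38.9, 39.6 and 41.9 FPKM with ANAA-MYB. The highest 2KR-MYB library was thus well below the lowest ANAA-MYB library. The mean level was 1.43 times higher in the ANAA-MYB rescue, and the log2 difference was −0.50 (SE 0.0535, 95% interval −0.63 to −0.38, limma adjusted p = 0.0005). By size of the log2 difference UHRF1 ranked 1029 of 12634 tested genes, and by p it ranked 317. With 3 libraries against 3 an exact two-sided permutation test cannot go below p = 0.1, and UHRF1 reached that value.

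DNMT1 (ENSG00000130816, chromosome 19, 10133346 to 10194953), the maintenance methyltransferase, measured 49.1, 54.0 and 53.4 FPKM in the 2KR-MYB libraries, against 55.9, 57.0 and 57.3 FPKM with ANAA-MYB. The libraries did not overlap, but the gap between the nearest libraries was small beside the spread of the 2KR-MYB libraries, of which replicate 1 was the lowest. The log2 difference was −0.12 (SE 0.0501, 95% interval −0.24 to −0.01), with a limma adjusted p of 0.11, so DNMT1 was not called.

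The level of UHRF1 relative to DNMT1 was therefore taken within each library, where scaling between libraries drops out. The ratio of UHRF1 to DNMT1 was 0.542, 0.535 and 0.535 in the 2KR-MYB rescue and 0.696, 0.695 and 0.731 in the ANAA-MYB rescue. Every ratio of the 2KR-MYB rescue was below every ratio of the ANAA-MYB rescue. The means were 0.537 ± 0.00393 and 0.707 ± 0.0207 (SD, n = 3 each), with p = 0.1 in the exact two-sided permutation test, the smallest it can give, and 0.17 after adjustment over the 15 within-library measures compared. UHRF1 was also lower relative to PCNA, the replication clamp, with a ratio of 0.258 ± 0.00445 in the 2KR-MYB rescue and 0.316 ± 0.0121 in the ANAA-MYB rescue. Relative to UHRF2, its paralogue, the ratio was 2.36 ± 0.223 against 3.85 ± 0.399. Neither ratio overlapped between the rescues, and both were chosen after the values had been seen.

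The de novo methyltransferases did not differ beyond the spread of their libraries. DNMT3A (ENSG00000119772, chromosome 2, 25227874 to 25342590) measured 2.94, 2.99 and 2.64 FPKM in the 2KR-MYB libraries, against 2.77, 2.18 and 2.61 FPKM with ANAA-MYB. The highest ANAA-MYB library lay inside the range of the 2KR-MYB libraries. The log2 difference was 0.14 (95% interval −0.09 to 0.36, limma adjusted p = 0.33), the widest interval of the 7.

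DNMT3B (ENSG00000088305, chromosome 20, 32762385 to 32809356) measured 26.0, 26.5 and 27.6 FPKM in the 2KR-MYB libraries, against 28.2, 27.3 and 28.8 FPKM with ANAA-MYB. Replicate 3 of the 2KR-MYB rescue was above replicate 2 of the ANAA-MYB rescue, and the others kept the groups apart. The log2 difference was −0.07 (95% interval −0.18 to 0.04, limma adjusted p = 0.31). DNMT3B exceeded DNMT3A by 9.37 ± 0.909 times in the 2KR-MYB rescue and by 11.3 ± 1.18 times in the ANAA-MYB rescue, and these ratios overlapped.

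TET2 was the dioxygenase gene whose libraries were apart. It (ENSG00000168769, chromosome 4, 105145875 to 105279803) measured 5.34, 5.26 and 5.23 FPKM in the 2KR-MYB libraries, against 4.39, 4.35 and 4.15 FPKM with ANAA-MYB. The spread within each rescue was small, with SDs of 0.0581 and 0.125 FPKM around means of 5.28 and 4.30 FPKM. The 95% interval of the log2 difference ran from 0.09 to 0.40, and TET2 ranked 2582 of the 12634 tested genes by p. With a limma adjusted p of 0.027 TET2 would be called at a threshold of 0.05, which 26.9% of the tested genes and 2 of these 7 passed. TET2 and TET3 are genes that the study itself named from these libraries, so their place here is not an independent choice. The study named both as raised in the 2KR-MYB rescue against the MYB knockdown, and reported TET2 as raised by ANAA-MYB too. The difference between the rescues given here is another comparison.

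TET1 (ENSG00000138336, chromosome 10, 68560337 to 68694487) measured 4.85, 4.93 and 5.15 FPKM in the 2KR-MYB libraries, against 4.84, 5.18 and 5.29 FPKM with ANAA-MYB. The lowest and the highest of these 6 values both belonged to the ANAA-MYB rescue. The 95% interval of the log2 difference was −0.19 to 0.13 (limma adjusted p = 0.79).

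TET3 (ENSG00000187605, chromosome 2, 73983631 to 74135498) measured 6.83, 6.97 and 7.82 FPKM in the 2KR-MYB libraries, against 7.80, 6.97 and 7.43 FPKM with ANAA-MYB. The groups covered nearly the same range. The 95% interval was −0.20 to 0.14 (limma adjusted p = 0.77). The log2 differences of TET1 and TET3, −0.03 each, changed sign under upper quartile scaling, which gave 0.023 and 0.021, so no direction is given for either gene.

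**Figure D2:**
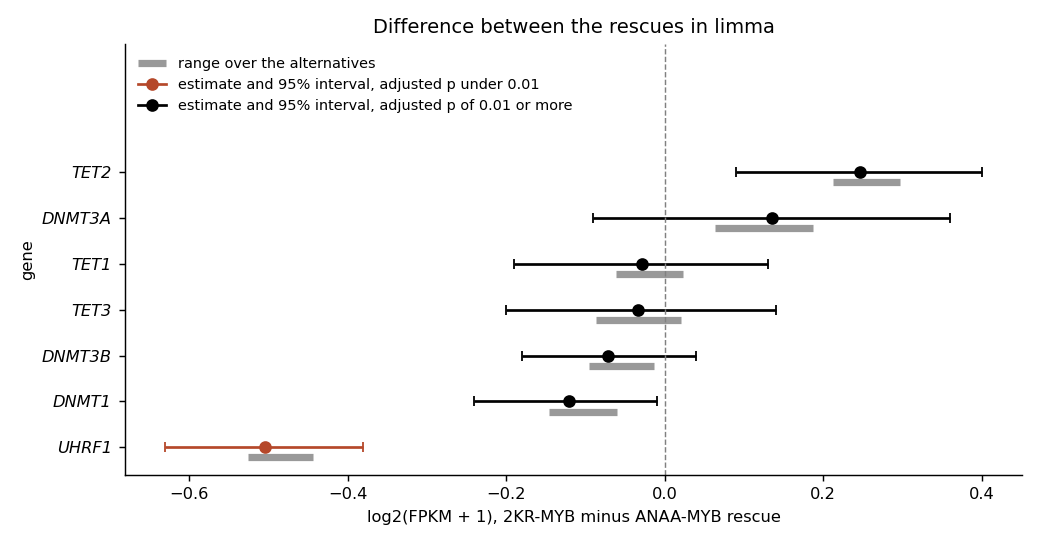
Log2(FPKM + 1) difference of the 7 genes, 2KR-MYB minus ANAA-MYB rescue (x axis), as the limma estimate with its 95% interval (points and thin lines) and the range of the estimate over the alternative settings (grey bars). UHRF1 is the gene with an adjusted p under 0.01, at −0.50 with a range from −0.526 to −0.444, TET2 lies above 0 throughout, and the ranges of TET1 and TET3 include 0.

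Within the TET family the share held by TET2 was higher in each 2KR-MYB library than in any ANAA-MYB library. The summed FPKM of the 3 TET genes was 17.0, 17.2 and 18.2 in the 2KR-MYB rescue and 17.0, 16.5 and 16.9 in the ANAA-MYB rescue, a separation smaller than the last digit shown. TET2 made up 31.4, 30.6 and 28.7% of this sum in the 2KR-MYB rescue and 25.8, 26.4 and 24.6% in the ANAA-MYB rescue. The share of TET2 did not overlap between the rescues, with p = 0.1 in the exact two-sided permutation test and 0.17 after adjustment over the 15 measures. TET1 made up 28.5 ± 0.213% and 30.4 ± 1.72% (SD, n = 3 each), and TET3 41.2 ± 1.51% and 44.0 ± 1.80%, and both shares overlapped. The ratio of TET2 to TET1 was 1.06 ± 0.0435 in the 2KR-MYB rescue and 0.844 ± 0.0610 in the ANAA-MYB rescue. The ratio of TET2 to TET3 was 0.735 ± 0.0590 against 0.582 ± 0.0367. Both ratios were without overlap and were chosen after the values had been seen.

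The summed FPKM of the 3 DNMT genes was 78.0, 83.4 and 83.6 in the 2KR-MYB rescue and 86.8, 86.5 and 88.8 in the ANAA-MYB rescue, with no overlap. DNMT1 made up most of it in every library, at 63.8 ± 0.863% in the 2KR-MYB rescue and 65.0 ± 0.860% in the ANAA-MYB rescue. DNMT3B made up 32.7 ± 0.816% and 32.1 ± 0.537%, and DNMT3A 3.50 ± 0.309% and 2.88 ± 0.339%. The summed DNMT level was 4.58, 4.86 and 4.59 times the summed TET level in the 2KR-MYB rescue and 5.10, 5.24 and 5.26 times in the ANAA-MYB rescue. This ratio too was apart between the rescues, at p = 0.1 in the exact test and 0.17 adjusted over the 15 measures, as low as this design allows for a single measure.

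**Figure D3:**
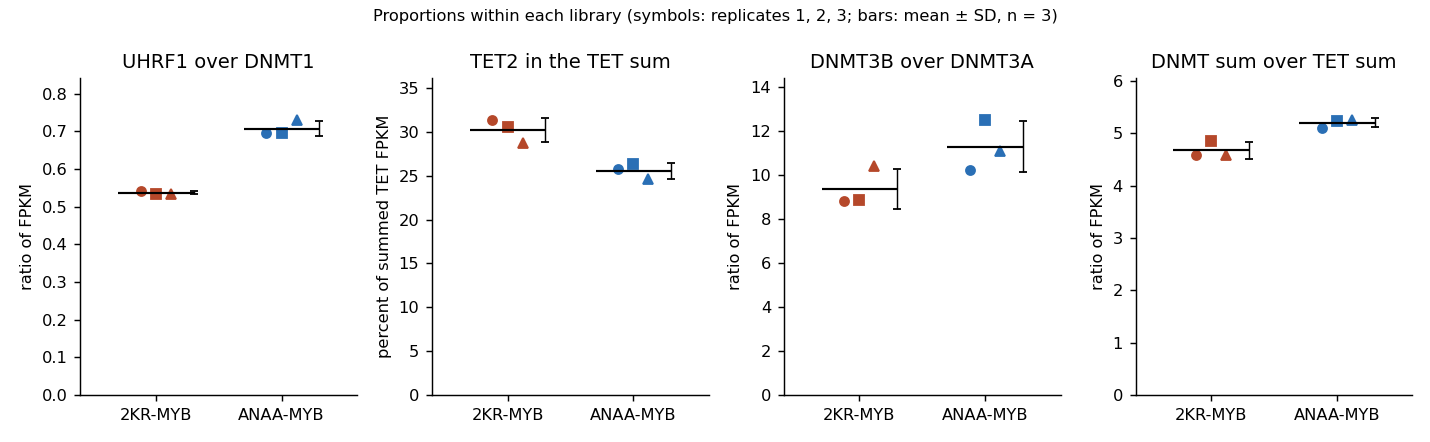
Within-library proportions in FPKM (y axes, from 0): the ratio of UHRF1 to DNMT1, the percentage of the TET sum in TET2, the ratio of DNMT3B to DNMT3A and the ratio of the DNMT sum to the TET sum, with a symbol for each replicate and lines for mean ± SD (n = 3). The UHRF1 to DNMT1 ratio is 0.535 to 0.542 in the 2KR-MYB rescue and 0.695 to 0.731 in the ANAA-MYB rescue, and the DNMT3B to DNMT3A ratio overlaps.

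Because each rescue is a single clone of an aneuploid line, the tested genes next to each of the 7 on its chromosome were examined. Around UHRF1 the median log2 difference of 10 tested genes on each side, from SH3GL1 to NRTN, was −0.081, with 12 of 20 below 0 (53.2% over all tested genes) and 2 called, so UHRF1 at −0.50 lay well below most of its neighbours. LRG1, at −0.678, was the 1 neighbour of the 20 further from 0. Around TET2 the median was 0.096, with 6 of 20 below 0, and it was 0.015 and 0.023 with 5 and 20 genes on each side. DNMT1 lay near the middle of its neighbours, with a median of −0.158, and 15 of 20 below 0. Of its 5 called neighbours 2 were lower, ICAM1 and ICAM4, and the others, ZNF846, SHFL and P2RY11, were higher in the 2KR-MYB rescue. The medians around the other 4 genes lay between −0.035 and 0.029. The part of DNA copy number in any of these values was not tested.

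Reads from overlapping genes could enter some of these values. TET3 shares 99 bases with BOLA3 on the opposite strand, and BOLA3 reached 90.5 FPKM. TET2-AS1, which lies within the span of TET2, was at no more than 0.0981 FPKM in any library. ARRDC5 and MIR4747, which overlap UHRF1, were listed at 0 in all 6 libraries. DNMT1 and DNMT3B overlapped no annotated gene of the table. The libraries were strand-specific, but the strand setting used for counting is not given in the sources used here.

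The genes whose pattern over the 6 libraries was most like that of each of the 7 were found by the root mean square difference of centred log2(FPKM + 1) values. For UHRF1 these were TXLNG, at 0.0189, and PPT1, at 0.0301, and 34 genes lay within 0.05. TXLNG measured 20.4, 21.6 and 21.2 FPKM in the 2KR-MYB libraries, against 28.7, 29.5 and 31.6 FPKM with ANAA-MYB. For TET2 they were PGS1 (0.0175) and PCBD1 (0.019), with 184 genes within 0.05. For DNMT1 they were FOXO3B (0.0109) and CIAPIN1 (0.0146), with 544 genes. DNMT3A had the fewest close patterns, 27 genes within 0.05, led by FAM149B1 (0.0353) and ENSG00000214248 (0.0368). The flat patterns had many: 918 genes for TET1, led by ATP6V1E1 and USP10, and 844 for DNMT3B, led by AUP1 and MTA2. TET3 had 178, led by SPOPL and ABCA3. With 6 points such likeness is a description.

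Among the proteins that work with the methyltransferases, 1 of 14 tested genes was called and it was higher in the 2KR-MYB rescue. EZH2, the methyltransferase of Polycomb repressive complex 2, was at 72.3 ± 4.45 FPKM against 50.7 ± 2.55 FPKM, a log2 difference of 0.50 (limma adjusted p = 0.00084). Its 20 tested neighbours had a median of 0.265, and 8 of them were called, 1 of these lower. PCNA measured 102, 111 and 113 FPKM in the 2KR-MYB libraries, against 125, 129 and 127 FPKM with ANAA-MYB, a log2 difference of −0.23 with a limma adjusted p of 0.013, just outside the threshold. UHRF2 was at 11.9 ± 0.632 and 10.5 ± 1.10 FPKM and was not called (limma adjusted p = 0.16). DNMT3L, the catalytically inactive partner of the de novo enzymes, was listed at 0 in 5 of 6 libraries. The median log2 difference of the list was −0.061, beside −0.015 over all tested genes. Of the list 7.14% was called, beside 13.0% of all tested genes.

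None of the 11 genes listed as methyl-CpG readers passed the adjusted threshold in limma. The list mixes proteins that bind the finished mark with partners from their complexes that do not bind it themselves. At an unadjusted p under 0.05 there were 4 of the 11, beside 39.4% of all tested genes, so this count does not stand above the background. Log2 differences were below 0 for 9 of them, beside 53.2% of all tested genes, and the median was −0.102. Of the 15 tested genes of active demethylation and base excision repair, 2 were called, 13.3% beside 13.0% of all tested genes. Both were lower in the 2KR-MYB rescue. PARP1, the sensor of DNA breaks, was at 141 ± 4.47 FPKM against 191 ± 11.8 FPKM (log2 difference −0.43, limma adjusted p = 0.0013). Its 20 neighbours had a median of −0.301, with 18 below 0. SMUG1, a uracil-DNA glycosylase that also removes 5-hydroxymethyluracil, was at 23.9 ± 2.18 FPKM against 30.5 ± 0.782 FPKM (log2 difference −0.34, limma adjusted p = 0.0079), and it stayed past the threshold in 1 of 6 fits with a library left out, with limma adjusted p up to 0.031 over all alternatives. TDG, the glycosylase that excises the products of TET oxidation, was at 65.5 ± 0.849 and 68.4 ± 4.96 FPKM and was not called.

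The supply of substrates was covered by lists of 2-oxoglutarate and methyl donor genes. Of 14 genes that make or consume 2-oxoglutarate or the metabolites that compete with it, 1 was called. This is 7.14% of the list, beside 13.0% of all tested genes. IDH2, the mitochondrial isocitrate dehydrogenase, was at 26.4 ± 1.28 FPKM against 32.1 ± 0.850 FPKM (log2 difference −0.27, limma adjusted p = 0.0074), and the call was lost in all 6 fits with a library left out (limma adjusted p up to 0.032). Of 13 methyl donor genes, 1 was called higher and 1 lower, 15.4% of the list beside 13.0% of all tested genes. TYMS, thymidylate synthase, was at 75.2 ± 4.92 FPKM against 114 ± 3.86 FPKM (log2 difference −0.60, limma adjusted p = 0.00033). All 13 tested genes counted as its neighbours lay below 0, with a median of −0.395. AHCYL1, a relative of S-adenosylhomocysteine hydrolase, was at 59.4 ± 2.34 against 48.5 ± 1.59 FPKM (log2 difference 0.29, limma adjusted p = 0.0045), past the threshold in 1 of 6 fits with a library left out.

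UHRF1 is transcribed with the genes of DNA replication in cycling cells, and so 20 of these were set beside it. Of the 20, 3 were called, 15.0% beside 13.0% of all tested genes, and all 3 were lower in the 2KR-MYB rescue. Log2 differences were below 0 for 17, beside 53.2% of all tested genes. The median was −0.109, beside −0.015 over all tested genes. RRM2, a subunit of ribonucleotide reductase, was at 106 ± 4.01 against 147 ± 7.73 FPKM (log2 difference −0.47, limma adjusted p = 0.00072). CCNE1, which encodes cyclin E1, was at 16.9 ± 0.267 against 22.9 ± 1.06 FPKM (log2 difference −0.42, limma adjusted p = 0.0011). POLE2, a subunit of DNA polymerase epsilon, was at 13.5 ± 0.659 against 17.8 ± 0.890 FPKM (log2 difference −0.38, limma adjusted p = 0.0033), past the threshold in 2 of 6 fits with a library left out. The medians of their 20 tested neighbours were −0.018 for RRM2, −0.049 for CCNE1 and −0.02 for POLE2. Those around SMUG1, IDH2 and AHCYL1, called in the lists above, were −0.061, −0.022 and 0.044. The estimate for UHRF1 (−0.50, SE 0.0535) was larger in size than that of each of the 20. Its gap to RRM2 (−0.47, SE 0.0541) was smaller than either SE, so their order is not settled. TYMS, counted with the methyl donor genes, was further from 0 at −0.60. The replication helicase genes MCM2 to MCM7 were not called, with log2 differences from −0.202 for MCM5 to −0.003 for MCM7. The summed level of the 20 genes ran from 1290 to 1360 FPKM in the 2KR-MYB rescue and from 1380 to 1480 FPKM in the ANAA-MYB rescue, and the part of the cell cycle in the difference of UHRF1 was not tested. In bulk RNA, fewer cells in S phase and less RNA per cell cannot be told apart, and the same holds for fewer cells of a type.

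The cells carried the globin RNA typical of K562, with HBG2 at 835 ± 59.2 and 994 ± 145 FPKM, and an erythroid list was set beside the 7 genes. GATA1 (78.2 ± 2.96 against 107 ± 3.44 FPKM), KLF1 (19.2 ± 1.44 against 30.7 ± 0.698 FPKM) and TFRC (217 ± 7.26 against 266 ± 16.3 FPKM) were lower in the 2KR-MYB rescue, all 3 past the threshold in limma, TFRC in only 1 of 6 fits with a library left out. GATA1, KLF1 and TFRC had neighbour medians of −0.180, −0.159 and 0.002. The erythroid list did not move as a whole, with 6 of 10 log2 differences below 0, beside 53.2% of all tested genes. HBE1 (167 ± 8.2 against 143 ± 9.65 FPKM) and TAL1 (39.7 ± 4.43 against 32.0 ± 3.04 FPKM) were higher in the 2KR-MYB rescue without overlap. Neither was called (limma adjusted p = 0.028 and 0.045). Of 5 megakaryocyte markers, PF4 and GP9 were listed at 0 in all libraries, and the sum of the 5 ran from 4.92 to 6.11 FPKM in the 2KR-MYB rescue and from 7.50 to 8.88 FPKM in the ANAA-MYB rescue. Of the 5 only ITGA2B and ITGB3 were high enough to be tested, and neither was called (limma adjusted p = 0.042 and 0.014). Of 8 lymphoid, monocyte and fibroblast markers, 4 were tested and 3 called, beside 13.0% of all tested genes. CD3D and LYZ were lower and COL1A1 higher (2.13 ± 0.764 against 0.553 ± 0.126 FPKM) in the 2KR-MYB rescue. COL1A1 was past the threshold in 1 of 6 fits with a library left out (limma adjusted p up to 0.035 over its alternatives), and CD3D in 5 of 6. COL3A1, the other fibroblast collagen of the list, was too low to be tested and lay the opposite way, at 0.0648 ± 0.0342 against 0.467 ± 0.0708 FPKM without overlap. The sum of the 8 ran from 40.5 to 45.6 FPKM and from 65.2 to 90.5 FPKM, most of it CD3D (27.8 ± 2.47 against 52.9 ± 9.97 FPKM) and LYZ (10.6 ± 1.50 against 21.9 ± 2.57 FPKM), while MS4A1 was listed at 0, CD3E did not exceed 0.531 FPKM and CD14 did not exceed 0.275 FPKM. The parts of erythroid state and of other cells in the difference of UHRF1 were not tested. MYB (ENSG00000118513, chromosome 6, 135181308 to 135219172) measured 69.0, 61.2 and 67.5 FPKM in the 2KR-MYB libraries, against 53.6, 55.3 and 62.0 FPKM with ANAA-MYB, which overlapped (limma adjusted p = 0.062). This value sums endogenous and rescue transcripts and does not check the knockdown. Per library the FPKM column added up to 579920.3 to 633661.8, and the number of reads behind them is unknown.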

How the data were processed

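Strand-specific poly(A) libraries of the 3 2KR-MYB and 3 ANAA-MYB rescues were read as 150 bp pairs. According to the submitters' processing notes, bcl2fastq 2.18.0.12, Trimmomatic 0.36, TopHat2 2.1.1, Cufflinks and Cuffdiff 2.2.1 were used with GRCh38, and the authors deposited 1 FPKM value for every gene in each replicate. Which gene annotation and library scaling they used is not given in the sources used here. Ratios of values under 0.5 FPKM showed no common step (at most 3.9% within 1%), so reads could not be recovered and depth is unknown. A further 12 columns of values were not used.

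Of 58288 genes, 55854 matched a symbol, and positions on GRCh38 came from RefSeq. Those averaging 1 FPKM or more were compared by limma 3.58.1 (R 4.3.3; empirical Bayes with trend) after log2(FPKM + 1) transformation, at a Benjamini-Hochberg adjusted p under 0.01. Within-library ratios were compared by exact two-sided permutation with scipy 1.17.1. Figures were drawn with matplotlib 3.10.9. The steps were tested on simulated data. Libraries of a rescue were separate: at most 26 of the 12634 tested genes had identical values in any pair. Promoter windows were those of RefSeq, matched for all 7 genes.

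Named were the 7 genes, up to 4 called genes per list by adjusted p, the 2 genes of nearest pattern to each of the 7, and MYB. Genes named beyond this rule (PCNA, UHRF2, DNMT3L, TDG, the MCM genes, the named neighbours, HBG2, overlapping genes and those without a call among the cell type markers) were chosen after their values were seen. A called gene of the erythroid list is not reported here. The genes and lists were chosen with earlier results of these data known. Alternative settings changed the pseudocount (0.1, 0.01), the filter (none, 5 FPKM), the scaling (upper quartile, quantiles), the prior (robust), the threshold (0.05) or the libraries (1 left out), added a replicate block, or took 5 or 20 neighbours on each side. Corrections for transcript GC content and length, known for 12489 tested genes (98.9%), were added after the data were seen.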

Additional observations from a re-analysis of the deposited data

How the results depend on the processing

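UHRF1 stayed lower in the 2KR-MYB rescue and past the threshold under all 17 alternatives run for it, with log2 differences from −0.526 to −0.444 and limma adjusted p from 0.00026 to 0.0039. The threshold of 0.05, counted among the 17, reuses the main fit and could not lose the call. TET2 stayed higher under its 16 alternatives, from 0.213 to 0.297, with limma adjusted p from 0.026 to 0.079, and passed only where the threshold was 0.05. DNMT1 (−0.146 to −0.06), DNMT3A (0.064 to 0.187) and DNMT3B (−0.095 to −0.013) kept their sign and were never called. TET1 turned to 0.023 and TET3 to 0.021 under upper quartile scaling, which moves the median of all tested genes from −0.015 to 0.0402. Without 1 library at a time TET3 ran from −0.087 to 0.001, and the sign turned without replicate 1 of the ANAA-MYB rescue. The count of called genes among the 7 rose from 1 to 2 at a threshold of 0.05. Over all genes the count of 1642 became 942 with no filter, 1089 with the replicate block, 3402 at a threshold of 0.05 and 831 to 1139 without 1 library at a time. The causes of these changes were not tested, except that fewer samples enter the last. Samples with the same replicate number shared no deviation (correlations of −0.0523, −0.0353 and −0.00258), so the numbers do not pair them, and under the block SMUG1, IDH2, POLE2 and TFRC lost their calls. TET2 and DNMT3A could not be tested at a mean of at least 5 FPKM. With no reads given, the precision of the low values of DNMT3A and the TET genes rests on the replicate spread alone.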
